A study of Mus musculus with 72 samples.

Results

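Of 14604 genes measured in mouse pancreatic islets, 104 stood apart in the BALB/cJ strain. Under regular chow (RC), the mean log2 CPM (read counts scaled to the reads of the library) of each of these genes in BALB/cJ lay at least 1.5 above the means of both C57BL/6J and DBA/2J, or at least 1.5 below both, and the highest of the 3 strain means was 1 or more. Of the 104, 54 were higher and 50 were lower in BALB/cJ. Symbols starting with H2-, Rpl, Rps, Col or Try and the genes Npy and Elovl4 were set aside by name, which removed 5 genes that met the limits: Npy, Elovl4 and Rps2-ps10 on the higher side, and Rpl26 and Rpl35a on the lower side.

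The study measured islet RNA of male mice, given as 8 weeks old, of these inbred strains, for which the labels name no engineered allele, after 5, 13 or 33 days on a high-fat diet (HFD) or RC. The libraries analysed numbered 12 from BALB/cJ, 12 from C57BL/6J and 11 from DBA/2J under HFD, against 12, 11 and 11 under RC, with 3 or 4 for each strain, diet and day. Islet RNA was extracted per mouse, from islets hand-picked after enzymatic digestion and rested overnight in culture, and libraries were made from poly(A)-selected RNA with a kit that keeps the strand. The RC libraries chose the genes, so the strain differences under RC are given as a description and the tests of strain were run on the HFD libraries, which the choice did not use.

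Islets are small endocrine organs made mostly of insulin-secreting beta cells, with glucagon, somatostatin and pancreatic polypeptide cells, vessels, nerves and supporting cells. Inbred strains differ at fixed sequence variants across the genome, and a gene can differ between strains through its own regulatory sequence, through a factor that acts on it, or through copies gained or lost since the strains separated. A set chosen only by the size of a strain difference therefore need not share a pathway, and genes of unrelated function stand side by side in it.

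The libraries held 12292621 to 34591079 reads in the deposited genes (median 22756199), and a gene with no read was listed at a floor of -3.54 log2 CPM (0.0862 CPM). Insulin transcripts (Ins1 plus Ins2) made up 11.5% to 23.3% of reads. Summed acinar markers, the digestive enzymes of the exocrine pancreas, varied most between libraries. They reached 54567 and 30267 CPM in the BALB/cJ libraries of HFD day 5 replicates 3 and 4, against 611 to 8064 CPM in the other 10 BALB/cJ HFD libraries. The summed level of 12 ductal markers was 748 to 876 CPM in BALB/cJ, against 592 to 830 CPM in C57BL/6J and 661 to 898 CPM in DBA/2J under HFD.

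The 24 BALB/cJ libraries also fell into separate sets by the number in their sample titles, whose meaning the labels do not give. The 7 with the highest numbers were replicates 3 and 4 of HFD day 5 and of HFD day 13, replicates 3 and 4 of RC day 5, and replicate 4 of RC day 13. The other 17 carry lower numbers, and all 8 libraries of day 33 are among them. For 9 of the 104 genes, every library of the one set lay above every library of the other, as it did for 0.849% of all genes tested. This split was noticed after the values of Pla2g5 had been seen, and results that rest on it are given with and without those 7 libraries.

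The smaller of the 2 RC differences (to C57BL/6J and to DBA/2J) had a median of 2.15 log2 units among the 54 higher genes and of -1.92 among the 50 lower genes. Just inside the limit on the higher side were Lbp (1.501), Gstm2 (1.503) and Asb9 (1.55), and just outside it Slc35f4 (1.496), Slc38a5 (1.45) and Mfap4 (1.43). Just inside on the lower side were Gm3055 (-1.503), Npas2 (-1.51) and Zdhhc22 (-1.52), and just outside it Cds1 (-1.499), Mill2 (-1.49) and Tnfrsf11b (-1.47). The higher genes comprised 35 protein-coding genes, 13 pseudogenes and 6 other non-coding genes. The lower genes comprised 37 protein-coding genes, 3 pseudogenes and 10 other non-coding genes. Processed pseudogenes, which are retrotransposed copies of messenger RNAs, made up 12 of the 54 higher genes and 1 of the 50 lower genes, against 183 of all 14604 genes (1.25%).

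In the HFD libraries, 53 of the 54 higher genes were again higher in BALB/cJ than in both other strains, with an adjusted p under 0.05 in both contrasts (limma across all genes). Of all genes tested, 7.29% were called higher in this way. Of the 50 lower genes, 49 were called lower than in both, against 7.23% of all genes. The genes not called were Gm5771, which differed from DBA/2J by 1.17 ± 0.75 (SE; adjusted p = 0.256), and Zdhhc22, which differed from C57BL/6J by -0.69 ± 0.32 (SE; adjusted p = 0.0732). Npas2 was among the 49 with a smaller difference of -0.52, and its call was lost in 27 of 35 fits that left out 1 library each. Zdhhc22 was called in 5 of 35 such fits. Without day 33, 52 higher and 46 lower genes were called, against 5.78% and 5.14% of all genes. By the smaller difference, calls lost then included Asb9 (0.67, adjusted p = 0.122) and Nupr1 (-0.12, adjusted p = 0.78). Gm3055 (-0.76, adjusted p = 0.243) and Npas2 (-0.18, adjusted p = 0.639) were also lost. Without day 13, Nupr1 (-0.84, adjusted p = 0.0564) and Npas2 (-0.51, adjusted p = 0.121) were not called.

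The size of the differences also carried over. The smaller HFD difference had a median of 2.18 among the higher genes (range 0.98 to 7.72) and of -1.74 among the lower genes (range -6.76 to -0.52). It reached 1.5 or more for 51 of the 54 higher genes, against 0.541% of all genes, and -1.5 or less for 37 of the 50 lower genes, against 0.390% of all genes. The 3 higher genes that fell short were Gm5771, 4930405N21Rik and Asb9. The 13 lower genes that fell short were Gm3055, Npas2, Zdhhc22, Asic1, Jhy, Asb11, Phgdh, Insyn2a, Matn2, Nupr1, Dcdc2a, Tc2n and Gabra4. Every BALB/cJ HFD library lay above every HFD library of the other strains for 43 of the 54 higher genes (0.767% of all genes), and below every one for 33 of the 50 lower genes (0.959% of all genes).

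**Figure D1:**
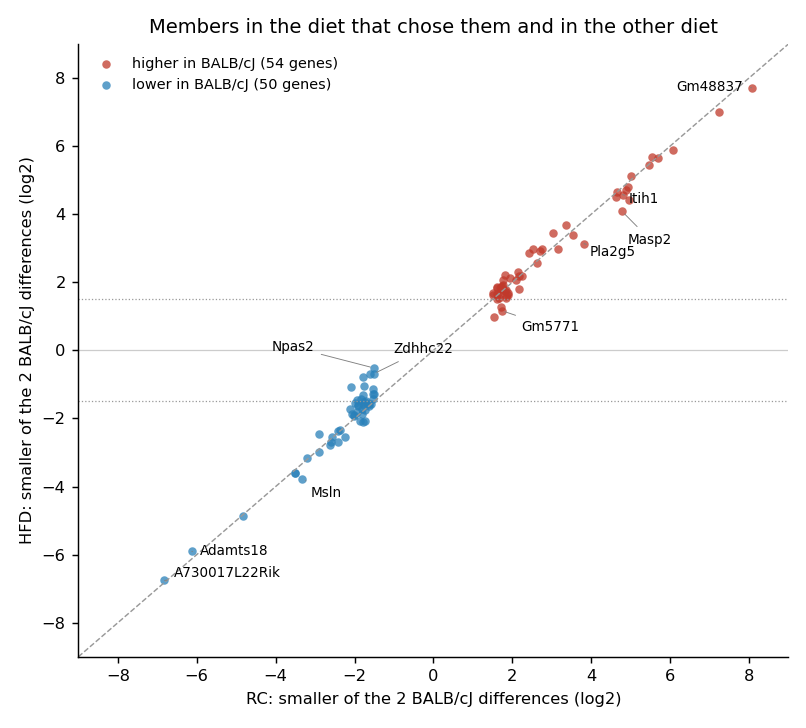
Smaller of the 2 strain differences of each of the 104 genes (log2 CPM, BALB/cJ minus the nearer of C57BL/6J and DBA/2J) under HFD against the same measure under RC, which chose the genes. Points past the 1.5 lines under HFD number 51 higher and 37 lower genes, and no gene changed sign between the diets.

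Several of the higher protein-coding genes encode secreted plasma proteins and proteases. Itih1 encodes a heavy chain of the inter-alpha-trypsin inhibitor, a plasma protein that binds hyaluronan in the matrix, and lies at chr14:30929180-30943289 on the minus strand (GRCm38). Its HFD levels were 4.21, 5.19 and 5.91 log2 CPM (lowest, median and highest) in BALB/cJ, against 0.16, 0.59 and 1.11 in C57BL/6J and -0.39, 0.33 and 0.92 in DBA/2J. The groups did not overlap, and the lowest BALB/cJ library lay above the highest of the others. The difference was +4.57 ± 0.15 log2 to C57BL/6J (adjusted p = 6.69e-23) and +4.87 ± 0.15 to DBA/2J (adjusted p = 5.22e-23), and pairs of differences below are given in that order, with SE after ±. Ambp encodes the precursor of bikunin, the light chain of the same inhibitor, and of alpha-1-microglobulin. It had 5.65, 6.11 and 6.67 log2 CPM in BALB/cJ, against 4.23, 4.49 and 4.78 in C57BL/6J and 3.89, 4.20 and 4.94 in DBA/2J. Its ranges did not overlap, and the differences were +1.63 ± 0.09 and +1.86 ± 0.10 (adjusted p = 6.62e-16 and 6.33e-17).

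Masp2 encodes the serine protease that cleaves C4 and C2 in the lectin pathway of complement. It had 2.35, 2.59 and 3.15 log2 CPM in BALB/cJ, against -2.89, -1.300 and -0.54 in C57BL/6J and -3.54, -2.71 and -2.14 in DBA/2J. It was near the floor in both other strains and clear of it in every BALB/cJ library, with differences of +4.08 ± 0.21 and +5.57 ± 0.21 (adjusted p = 2.48e-17 and 2.17e-20). Masp2 overlaps Tardbp on the other strand, so its value depends on the strand being kept apart in counting, which the sources used here do not state. Hpn, the membrane serine protease hepsin, had 2.35, 2.69 and 3.40 log2 CPM in BALB/cJ, against -0.73, 0.08 and 0.97 in C57BL/6J and -0.34, 0.59 and 1.65 in DBA/2J. Hpn did not overlap between BALB/cJ and the others, with differences of +2.69 ± 0.18 and +2.14 ± 0.19.

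Other secreted or surface proteins of host defence and clotting followed. Procr encodes the endothelial protein C receptor, an anticoagulant receptor, and differed by +2.15 ± 0.18 from C57BL/6J and +1.53 ± 0.18 from DBA/2J, without overlap. Lbp encodes the plasma protein that hands bacterial lipopolysaccharide to its receptor, and differed by +2.51 ± 0.20 and +1.69 ± 0.20, with an overlap of the BALB/cJ range (1.98 to 2.88) and the highest DBA/2J library (2.46). C1qtnf1 encodes a secreted protein of the C1q and tumor necrosis factor related family, and had 3.39, 3.999 and 4.77 log2 CPM in BALB/cJ, against 0.91, 1.53 and 1.89 in C57BL/6J and 0.53, 1.304 and 1.98 in DBA/2J. The C1qtnf1 ranges were apart, with differences of +2.57 ± 0.13 and +2.75 ± 0.14.

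Guanylate-binding proteins, GTPases of a family that interferon induces, gave 2 of the higher genes. Gbp2b had 1.42, 1.97 and 2.28 log2 CPM in BALB/cJ, against -3.54, -3.54 and -2.08 in C57BL/6J and -2.63, -1.46 and 0.35 in DBA/2J. Most C57BL/6J libraries held no Gbp2b read, and the differences were +5.20 ± 0.20 and +3.44 ± 0.21 (adjusted p = 1.23e-20 and 3.08e-15). Gbp4 differed by +1.93 ± 0.22 and +1.99 ± 0.22, and 1 C57BL/6J library at 3.995 log2 CPM lay inside the BALB/cJ range of 3.37 to 4.03. The RefSeq promoter of Gbp2b on GRCm38.p6 is shown because it holds both a CCAAT box and a pair of GAAA words, with any 2 bases between them, that resembles an interferon-stimulated element, with both matches in capitals as they read on the opposite strand, at chr3:142594597-142594896 on the plus strand.
Gbp2b promoter: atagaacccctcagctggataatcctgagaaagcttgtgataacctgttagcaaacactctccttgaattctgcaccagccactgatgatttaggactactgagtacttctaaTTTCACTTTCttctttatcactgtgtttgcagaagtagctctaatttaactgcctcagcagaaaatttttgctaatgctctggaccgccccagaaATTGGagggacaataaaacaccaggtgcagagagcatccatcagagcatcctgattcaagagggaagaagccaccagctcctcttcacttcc

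Metabolic enzymes and transporters made up another group. Agmo encodes the monooxygenase that cleaves alkylglycerol ether lipids, and had 1.59, 2.24 and 2.84 log2 CPM in BALB/cJ, against -1.20, -0.93 and -0.08 in C57BL/6J and -1.72 (lowest) and 0.38 (highest) in DBA/2J. Agmo was higher in every BALB/cJ library, by +2.96 ± 0.20 and +2.98 ± 0.21. Gstm2 encodes a mu-class glutathione transferase and differed by +1.62 ± 0.07 and +1.72 ± 0.07, without overlap. Slc22a29, a member of the organic anion transporter family, differed by +3.38 ± 0.21 and +3.97 ± 0.21, but its transcript matches Slc22a27 at 96.8% over 91.9% of its length, so reads could be assigned to either. Outside the rule for named genes and picked after their values were seen, Fbp1, the gluconeogenic fructose-1,6-bisphosphatase, differed by +2.63 ± 0.11 and +2.06 ± 0.12. Hcar1, the lactate receptor, differed by +3.67 ± 0.11 and +1.53 ± 0.11, and was also +2.14 ± 0.11 higher in DBA/2J than in C57BL/6J. Gcnt1, an enzyme that branches O-linked glycans, was likewise picked after the fact and was graded, with +1.65 ± 0.16 to C57BL/6J and +5.42 ± 0.17 to DBA/2J.

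A neuropeptide precursor and genes of signalling and the cytoskeleton were also among the higher genes. Tac1, the precursor of substance P and neurokinin A, varied widely within each strain (-0.12 to 2.94 in BALB/cJ, against -2.602 to 1.92 in C57BL/6J and -2.29 to 0.24 in DBA/2J) and differed by +2.20 ± 0.34 and +3.16 ± 0.34. Dmtn, the actin-bundling protein dematin, had 4.18, 4.52 and 4.70 log2 CPM in BALB/cJ, against 1.43, 1.99 and 2.51 in C57BL/6J and 1.73, 2.36 and 2.68 in DBA/2J, and differed by +2.53 ± 0.10 and +2.18 ± 0.10. Inpp4b, a phosphatase of phosphatidylinositol 3,4-bisphosphate, differed by +2.34 ± 0.13 and +2.30 ± 0.13. Nacad, which resembles the alpha subunit of the nascent polypeptide-associated complex, had 3.87, 4.46 and 4.95 log2 CPM in BALB/cJ, against -0.30, 0.86 and 1.63 in C57BL/6J and -0.45, 1.13 and 1.47 in DBA/2J. Dmtn, Inpp4b and Nacad did not overlap between BALB/cJ and the other strains, and Nacad differed by +3.68 ± 0.18 from each.

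Krt19, a keratin of pancreatic ducts, was higher in BALB/cJ by +2.12 ± 0.33 and +1.69 ± 0.34 (adjusted p = 2.61e-06 and 0.000167), and its ranges overlapped, at 2.12 to 3.74 log2 CPM in BALB/cJ, against -0.22 to 3.05 in C57BL/6J and 0.48 to 3.09 in DBA/2J. Krt19 and Ambp are on the list of 12 ductal markers measured, of which 3 were called higher (Ambp, Krt19 and Sox9) and 1 lower (Tspan8). In a bulk sample, fewer cells of a type and less RNA per cell cannot be told apart. With the summed ductal level as a covariate, 53 of the 54 higher genes and 47 of the 50 lower genes were still called, against 6.16% and 6.73% of all genes. That sum includes Ambp and Krt19 themselves, and its HFD ranges overlapped between the strains. The part of ductal cells in the strain differences was not tested.

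**Figure D2:**
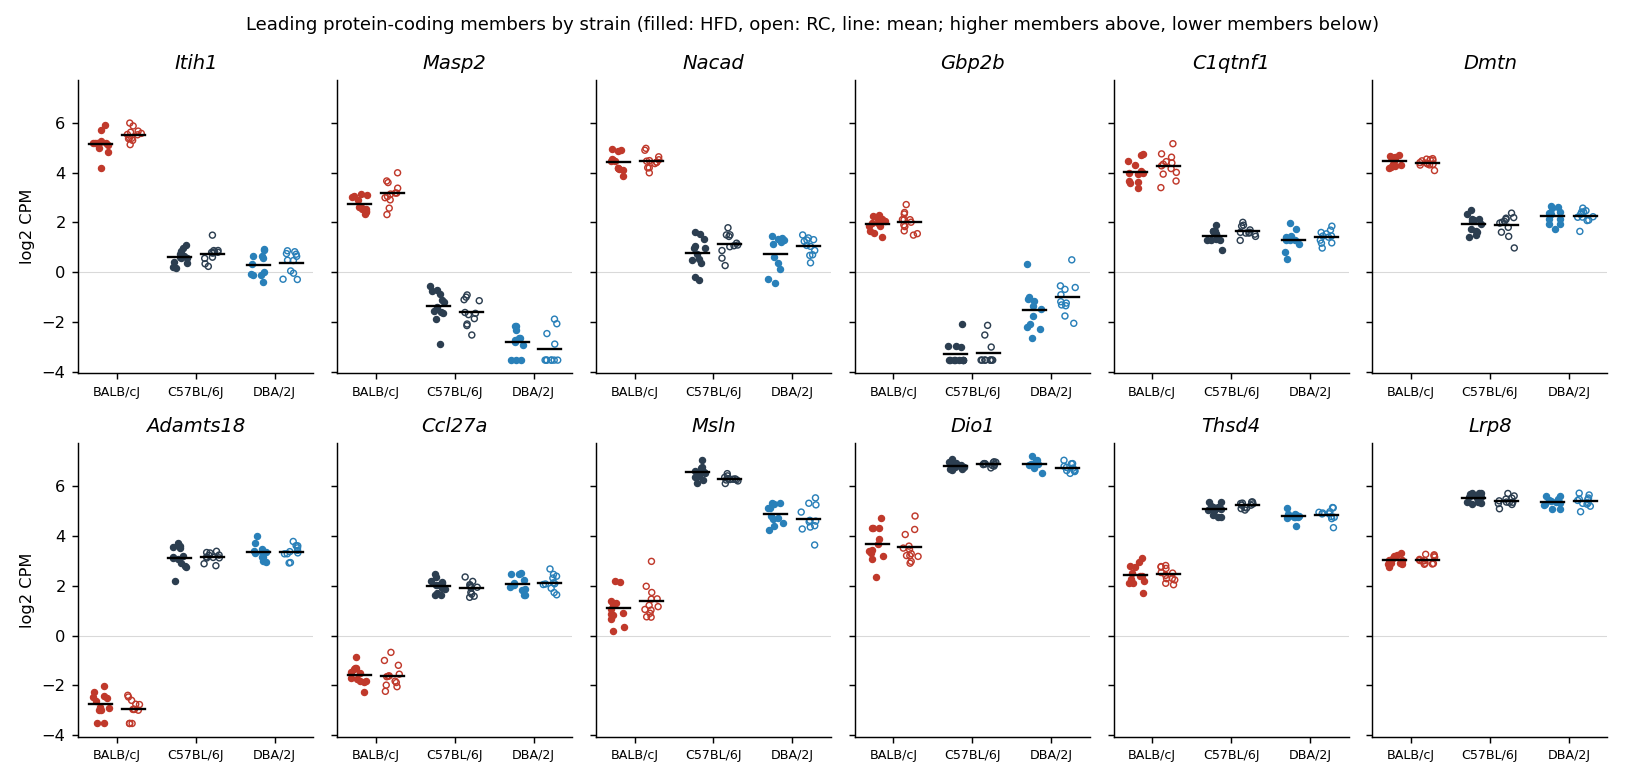
Levels (log2 CPM) of 12 leading protein-coding genes by strain, 1 point per library, filled for HFD and open for RC, with lines at the means. Itih1, Nacad and Dmtn lie higher in every BALB/cJ HFD library than in any of the other strains, while Adamts18, Msln and Lrp8 lie lower in every one.

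The widest gap on the lower side among the protein-coding genes was at Adamts18, a secreted metalloprotease of the extracellular matrix, at chr8:113697126-113848738 on the minus strand. It had -3.54, -2.73 and -2.03 log2 CPM in BALB/cJ, against 2.18, 3.15 and 3.73 in C57BL/6J and 2.97, 3.36 and 4.02 in DBA/2J. BALB/cJ was at or near the floor in every library, with differences of -5.90 ± 0.15 (adjusted p = 1.32e-25) and -6.11 ± 0.15 (adjusted p = 2.82e-25). Thsd4, a secreted protein related to the ADAMTS family that binds microfibrils, had 1.72, 2.39 and 3.13 log2 CPM in BALB/cJ, against 4.76, 5.11 and 5.38 in C57BL/6J and 4.43, 4.81 and 5.14 in DBA/2J. Thsd4 did not overlap, at -2.63 ± 0.09 and -2.36 ± 0.09. The RefSeq promoter of Adamts18 on GRCm38.p6, at chr8:113848790-113849089 on the minus strand, is shown for this gene at or near the floor in BALB/cJ, with its CCAAT match in capitals.
Adamts18 promoter: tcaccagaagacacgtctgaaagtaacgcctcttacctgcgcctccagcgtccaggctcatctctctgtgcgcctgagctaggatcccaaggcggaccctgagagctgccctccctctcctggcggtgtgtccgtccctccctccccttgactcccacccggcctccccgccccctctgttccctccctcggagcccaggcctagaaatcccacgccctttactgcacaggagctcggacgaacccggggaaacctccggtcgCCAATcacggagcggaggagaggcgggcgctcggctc

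Msln encodes mesothelin, a cell-surface glycoprotein of mesothelial cells. It had 0.17, 1.00 and 2.19 log2 CPM in BALB/cJ, against 6.13, 6.57 and 7.08 in C57BL/6J and 4.23, 4.80 and 5.33 in DBA/2J. All 3 strains were apart, and the differences were -5.46 ± 0.15 and -3.77 ± 0.15 (adjusted p = 7.97e-25 and 9.11e-20). Ccl27a, a chemokine that attracts T cells to skin, differed by -3.60 ± 0.13 and -3.66 ± 0.13, but it overlaps Il11ra1 on the other strand and resembles other loci, so its reads could be split. Pycard, the adaptor ASC of inflammasomes, was picked after its values were seen and differed by -1.62 ± 0.12 and -1.96 ± 0.13.

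Dio1, the deiodinase that converts thyroxine to the active hormone, had 2.36, 3.56 and 4.72 log2 CPM in BALB/cJ, against 6.68, 6.79 and 7.12 in C57BL/6J and 6.53, 6.91 and 7.21 in DBA/2J. The highest BALB/cJ library was well below the lowest of the others, with differences of -3.17 ± 0.17 and -3.24 ± 0.17 (adjusted p = 6.65e-17 and 1.29e-16). Lrp8, a receptor for reelin and apolipoprotein E, had 2.74, 3.02 and 3.32 log2 CPM in BALB/cJ, against 5.28, 5.59 and 5.73 in C57BL/6J and 5.08, 5.38 and 5.62 in DBA/2J. Its differences were -2.53 ± 0.07 and -2.34 ± 0.07, without overlap. Acsf2, an acyl-CoA synthetase, differed by -1.71 ± 0.11 and -1.80 ± 0.11, again without overlap. Ppargc1a, the coactivator of mitochondrial biogenesis, was picked after its values were seen and differed by -1.81 ± 0.14 and -1.89 ± 0.15.

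Signalling and other cellular genes completed the named lower set. Diras2, a small GTPase of the Ras family, differed by -2.53 ± 0.20 and -3.16 ± 0.20. Zfp872, a zinc finger gene, differed by -3.90 ± 0.29 and -2.77 ± 0.29, with ranges of -3.54 to 0.30 log2 CPM in BALB/cJ, against 1.57 to 2.87 in C57BL/6J and -0.12 to 2.21 in DBA/2J, so that BALB/cJ and DBA/2J overlapped. Tmem71, a transmembrane protein, differed by -2.39 ± 0.09 and -1.87 ± 0.09, without overlap. Gabra4, a subunit of the GABA-A receptor, was lower by -1.07 ± 0.23 and -2.11 ± 0.23, and its BALB/cJ range of -0.56 to 2.18 overlapped both 0.73 to 2.31 in C57BL/6J and 1.35 to 3.57 in DBA/2J. Ank2, an ankyrin that anchors membrane proteins, was picked after the fact, and differed by -2.33 ± 0.07 and -1.92 ± 0.07, without overlap.

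Non-coding genes held the widest gaps in both directions. Gm48837, an antisense transcript, had 3.61, 4.25 and 4.70 log2 CPM in BALB/cJ, and 1 read in all in the C57BL/6J HFD libraries and 1 in the DBA/2J HFD libraries. Its differences were +7.74 ± 0.13 and +7.72 ± 0.14, and an antisense gene can take reads of its partner where strand is not used in counting. A730017L22Rik had -3.54, -3.54 and -2.28 log2 CPM in BALB/cJ, against 3.22, 3.48 and 3.77 in C57BL/6J and 3.08, 3.31 and 3.82 in DBA/2J, with differences of -6.91 ± 0.11 and -6.76 ± 0.11. 9430085M18Rik had no read in any of the 12 BALB/cJ HFD libraries. Against a floor of 3 reads over the group, it was at least 256-fold lower than in C57BL/6J and at least 227-fold lower than in DBA/2J. 5830444B04Rik differed by -5.70 ± 0.25 and -3.59 ± 0.25, with no read in most BALB/cJ libraries.

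For many of the higher genes, a near-identical copy elsewhere in the genome could share reads. Matching each transcript to the others of the annotation at 95% identity or more over 80% or more of its length found such a copy for 21 of the 104 genes, 18 higher and 3 lower, and for 17 of the higher and 2 of the lower genes a copy was also measured. How often genes outside the set have such a copy was not tested. Among these 17 pairs, the copy was itself called lower in BALB/cJ in 9 pairs and higher in 0, against 7.23% and 7.29% of all genes. When the reads of both copies were added, the sum was called higher in BALB/cJ for 1 pair, lower for 6 and neither for 10. That fit called 7.18% of all genes higher and 7.27% lower.

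Gm15772, a pseudogene on chromosome 5, and Rpl26, a gene of the large ribosomal subunit, are shown because their strain order was opposite, and 2 of their 438 aligned bases differ. The stretch of 150 bases that holds both differences is shown from each annotated transcript (GRCm38), with the differing bases in capitals, from Gm15772 at chr5:3236431-3236868 (plus strand) and Rpl26 at chr11:68901583-68906989 (plus strand).
Gm15772: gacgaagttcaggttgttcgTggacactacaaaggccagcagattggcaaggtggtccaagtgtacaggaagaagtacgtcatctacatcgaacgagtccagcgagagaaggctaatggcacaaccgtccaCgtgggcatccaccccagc
Rpl26: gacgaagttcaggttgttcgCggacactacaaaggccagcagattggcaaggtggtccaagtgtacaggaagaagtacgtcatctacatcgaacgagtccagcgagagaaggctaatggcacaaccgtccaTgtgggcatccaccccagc

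Under HFD, Gm15772 had 115 ± 11 CPM in BALB/cJ (SD, n = 12), against 1.44 ± 0.49 CPM in C57BL/6J (n = 12) and 2.32 ± 0.84 CPM in DBA/2J (n = 11). Rpl26 had 11.7 ± 2.5 CPM in BALB/cJ, against 153 ± 14 CPM in C57BL/6J and 224 ± 21 CPM in DBA/2J. The strains were thus ordered in opposite ways at the 2 loci. Together they had 127 ± 12 CPM in BALB/cJ, against 154 ± 14 CPM in C57BL/6J and 226 ± 21 CPM in DBA/2J, and Gm15772 took 90.8% of the pair's reads in BALB/cJ, against 0.933% in C57BL/6J and 1.03% in DBA/2J. The sum was lower in BALB/cJ, by -0.28 ± 0.05 and -0.83 ± 0.06 log2.

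Gm4737 and Ahcy, the enzyme that hydrolyses S-adenosylhomocysteine, differ at 6 of 2083 aligned bases. The stretch shown holds 2 of these, in capitals, from Gm4737 at chr16:46152985-46155077 (minus strand) and Ahcy at chr2:155059310-155074497 (minus strand).
Gm4737: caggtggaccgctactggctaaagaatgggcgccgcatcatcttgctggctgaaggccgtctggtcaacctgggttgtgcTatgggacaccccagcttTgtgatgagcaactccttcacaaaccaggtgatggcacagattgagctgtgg
Ahcy: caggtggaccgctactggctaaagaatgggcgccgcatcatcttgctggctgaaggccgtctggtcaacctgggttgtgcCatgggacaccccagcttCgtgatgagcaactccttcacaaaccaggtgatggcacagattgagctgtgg

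Gm4737 averaged 5.24 CPM in BALB/cJ, against 0.0743 CPM in C57BL/6J and 0.0748 CPM in DBA/2J under HFD. Ahcy averaged 7.01 CPM in BALB/cJ, against 18.5 CPM in C57BL/6J and 15.7 CPM in DBA/2J. Their sum averaged 12.3 CPM in BALB/cJ, against 18.6 CPM in C57BL/6J and 15.8 CPM in DBA/2J, so the pair as a whole was lower in BALB/cJ while the pseudogene alone was higher. AK157302 and its match Isca1 gave a sum that was lower by -0.10 and -0.16, although AK157302 alone differed by +5.69 ± 0.20 from each strain. Gm7292 and its match 2900097C17Rik gave a sum lower by -0.33 and -0.41, against +7.28 ± 0.14 and +7.005 ± 0.15 for Gm7292 alone.

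The exception among the 17 was Hist1h2al, a histone gene. Alone it differed by +6.11 ± 0.19 and +5.89 ± 0.20, and with Gm20634 added it was still higher by +2.26 and +2.16. Its sequence also matches Hist2h2aa2 at 99.4%, so which histone locus the reads came from is uncertain. The sum of Gm5771, a trypsinogen-like gene, and Prss3 differed by +2.56 from C57BL/6J and by +1.21 from DBA/2J, and only the first was called. For the other 15 pairs the differences of the sum lay between -0.83 and 0.70 log2. With the reads of near-identical pairs summed throughout, 38 of the 104 genes were called higher and 54 lower, against 7.18% and 7.27% of all genes. The remaining 36 higher genes had no such copy.

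**Figure D3:**
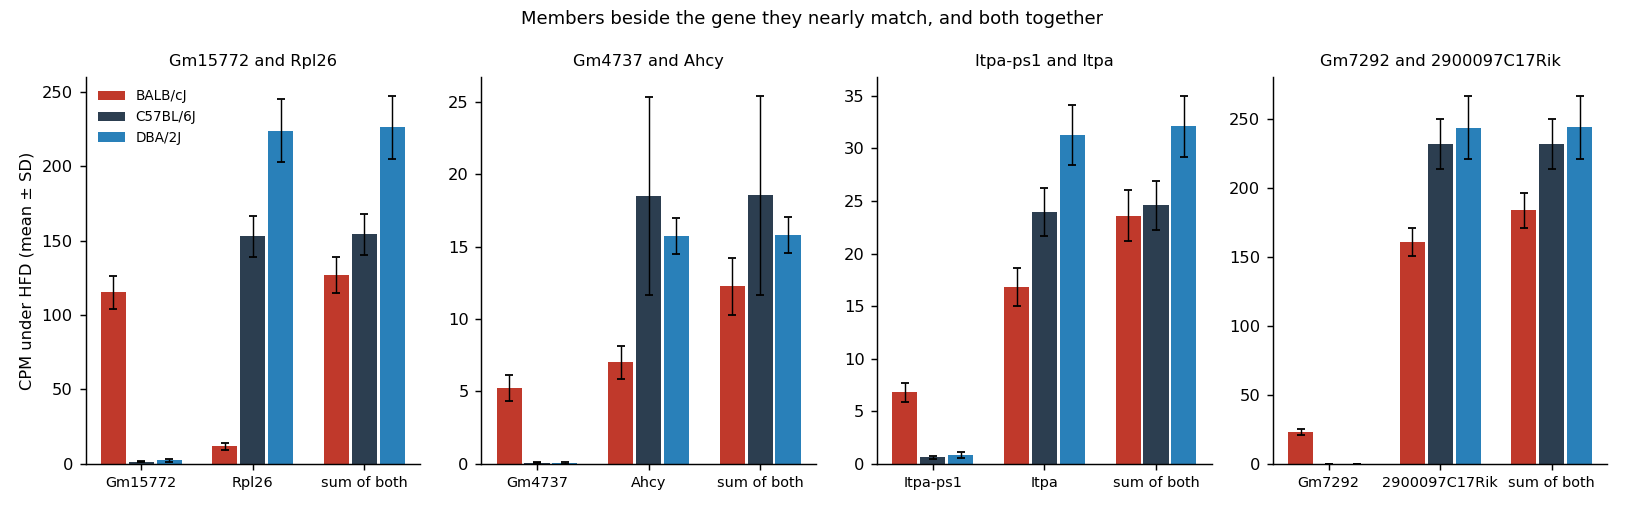
CPM under HFD (bars at the mean, error bars 1 SD over libraries) of 4 genes higher in BALB/cJ, of their near-identical match and of the pair summed, by strain. In each pair the gene of the set is higher and its match lower in BALB/cJ, and the sums are, for example, 127, 154 and 226 CPM for Gm15772 with Rpl26.

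Pla2g5 and Otud3 lie 31.9 kb apart on chromosome 4 and split the BALB/cJ libraries in opposite directions. Pla2g5 encodes a secreted phospholipase A2, and was at -1.66 to -0.29 log2 CPM in the 7 BALB/cJ libraries of highest title number and at 3.35 to 3.83 in the other 17, against -3.54 to -0.13 in all libraries of the other strains. Otud3 encodes a deubiquitinase, and was at 3.22 to 3.53 log2 CPM in those 7 libraries and at -1.38 to 0.44 in the other 17, against 3.09 to 3.92 in the other strains. At both genes the 7 libraries lay with C57BL/6J and DBA/2J rather than with the rest of BALB/cJ.

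In the HFD fit over all libraries, Pla2g5 differed by +4.60 ± 0.52 from C57BL/6J and +3.13 ± 0.54 from DBA/2J. Without those 7 BALB/cJ libraries it differed by +6.11 and +4.65, and with BALB/cJ taken only from them (day 33 left out) by +1.39 and +0.15. Otud3 differed by -2.59 ± 0.39 and -2.44 ± 0.40 over all libraries, by -3.81 and -3.66 without those libraries, and by -0.15 and +0.04 with BALB/cJ only from them. With BALB/cJ only from them, Pla2g5 was still called higher than C57BL/6J (adjusted p = 0.00855) but not than DBA/2J (adjusted p = 0.855), and Otud3 was called in neither contrast. The split by title number was drawn after the values of these genes were seen.

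The other 7 genes whose BALB/cJ sets were apart were Amd-ps3 on the higher side and Gm3055, Isoc2b, Dcdc2a, Gm17767, Cyp4f39 and Dio1 on the lower side. Amd-ps3, a processed copy of Amd1, was at -0.04 to 1.46 log2 CPM in the 7 libraries and at 2.78 to 3.63 in the other 17, against -0.65 to 1.05 in the other strains. Dcdc2a, a doublecortin-domain protein, was at 4.18 to 4.69 in the 7 and 1.58 to 3.81 in the 17, against 4.07 to 5.94 in the other strains. Cyp4f39, a cytochrome P450, was at 3.09 to 3.49 in the 7 and -0.55 to 2.03 in the 17, against 3.01 to 4.68. For Dcdc2a and Cyp4f39, the 7 libraries overlapped the other strains and the 17 did not. Dio1 was at 4.07 to 4.81 in the 7 and 2.36 to 3.89 in the 17, against 6.52 to 7.21, so both BALB/cJ sets lay below the other strains.

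Over the whole set, 53 of the higher and 49 of the lower genes were called without the 7 BALB/cJ libraries of highest title number, against 6.90% and 7.22% of all genes. With BALB/cJ taken only from them, 51 and 40 were called, against 6.24% and 6.11% of all genes. The selection itself found 108 genes under RC without those libraries, 99 of them among the 104. The 5 not found were Npas2, Gm5771, Jhy, Zdhhc22 and Hectd2os. What the title numbers stand for was not tested.

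**Figure D4:**
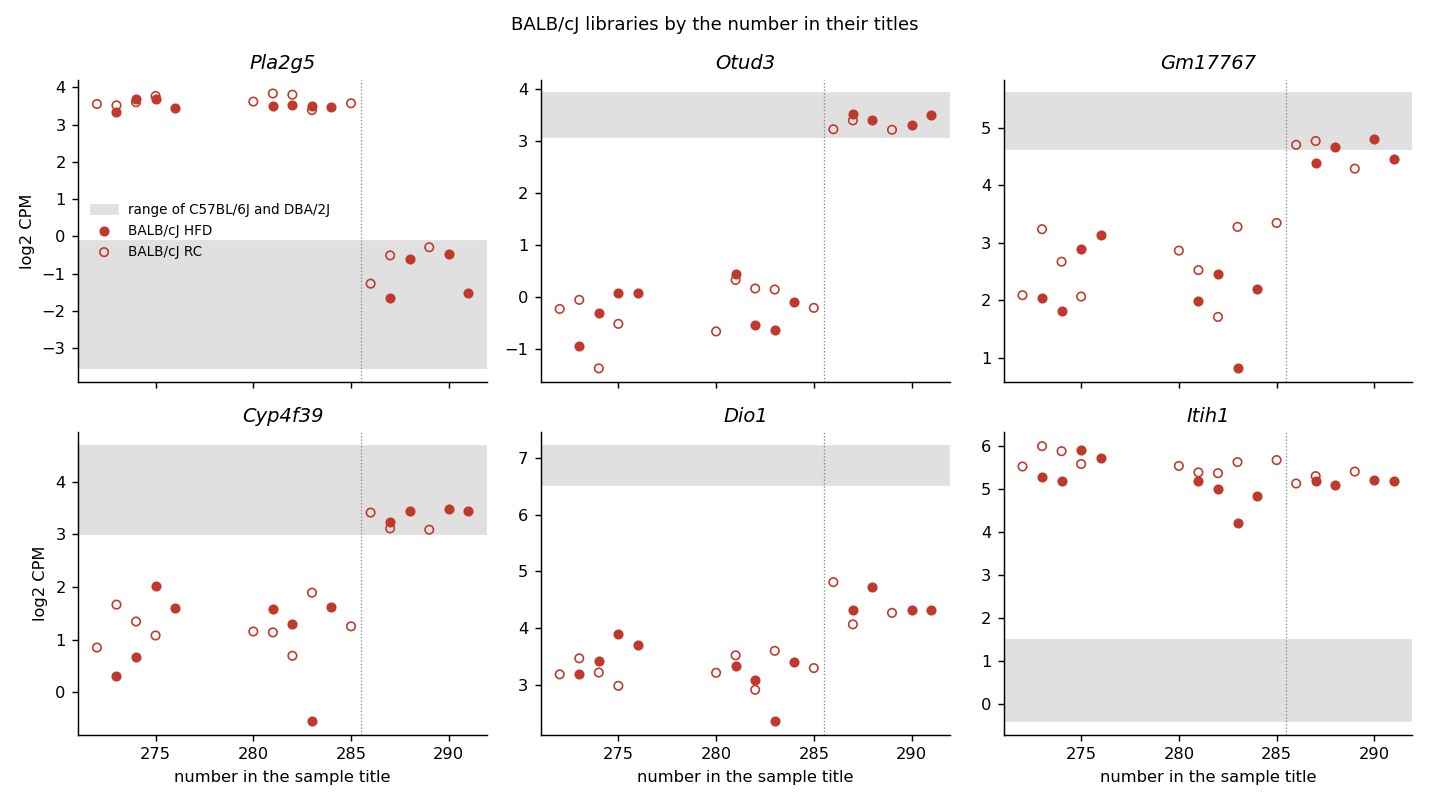
Levels (log2 CPM) of 5 genes whose BALB/cJ libraries fell apart by title number, and of Itih1, whose did not, against the number in the title, 1 point per BALB/cJ library (filled HFD, open RC), with the range of the other strains in grey and a dotted line below the 7 highest numbers. Pla2g5 is low in the 7 (-1.66 to -0.29) and high in the 17 (3.35 to 3.83), and Otud3 is the reverse.

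The 104 genes lay on 20 chromosomes, with at most 12 on any one (chromosome 5). Of these, 17 had another of the set within 1 Mb, and how often this holds for other genes was not tested. Dio1 and Lrp8, 495 kb apart on chromosome 4, were both lower. On the X chromosome, Car5b, a mitochondrial carbonic anhydrase, and Asb9, a substrate adaptor of ubiquitin ligases, were both higher and 478 kb apart, while Asb11, 409 kb from Car5b, was lower. Asphd2 and 4930405N21Rik (926 kb), Gm7292 and Gm4875 (278 kb) and Krt19 and Gm10039 (213 kb) were each higher together. With the reads of their near-identical copies added, the smaller HFD difference was -0.33 for Gm7292, -0.026 for Gm4875 and -0.35 for Gm10039. The nearest tested gene outside the set was called in the same direction for 3 of the 54 higher genes (5.56%) and for 15 of the 50 lower genes (30%), and in the opposite direction for 6 and 5. Over all genes placed on the genome, the nearest such gene was called higher for 6.21% and lower for 6.51%.

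The other strains also differed from each other at these genes about as often as elsewhere. DBA/2J differed from C57BL/6J under HFD at 55 of the 104 genes (52.9%), against 55.6% of all genes. Among the higher genes, DBA/2J was above C57BL/6J at 17 and below it at 6. Among the lower genes, it was above at 16 and below at 16. How the calls over all genes divide between these directions was not counted, so these splits are a description only.

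Diet moved few of these genes in BALB/cJ. The contrasts of HFD with RC use the RC libraries that chose the set, so their direction is not independent of the choice. In BALB/cJ, 1 of the 104 genes was called, against 0.151% of all genes. Insyn2a, a protein of inhibitory synapses, had -0.73, 0.28 and 1.18 log2 CPM under HFD, against -1.91, -0.49 and 0.27 under RC, with overlapping ranges. It was higher under HFD by +0.83 ± 0.18 (adjusted p = 0.0227), and the call was lost without day 13 (adjusted p = 0.0676), without day 33 (adjusted p = 0.351), without the libraries of high acinar level (adjusted p = 0.102) and with BALB/cJ libraries alone in the fit (adjusted p = 0.105). It was also lost with limma voom (adjusted p = 0.166), which called Itih1 instead (-0.35), and on log2(CPM + 1) (adjusted p = 0.162), which called Masp2 instead (-0.39). Single libraries also decided it, as the call was lost without HFD day 13 replicate 1 (adjusted p = 0.068), HFD day 33 replicate 4 (adjusted p = 0.0585), or RC day 13 replicate 1 (adjusted p = 0.0519) or 2 (adjusted p = 0.062). Without the 7 BALB/cJ libraries of highest title number, 5 genes were called: Insyn2a (+0.88), Npas2 (-1.54), Gm17767 (-0.67), Hectd2os (-0.96) and Asb11 (-0.84). In that fit 3.77% of all genes were called.

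In C57BL/6J, 16 of the 104 genes differed between the diets, against 14.6% of all genes, and 14 of them were lower under HFD, against 8.05% of all genes. Among the 50 lower genes, 12 fell and 0 rose in C57BL/6J, with a median of -0.14 over all 50, against -0.01 over all genes. Among the 54 higher genes, 2 rose and 2 fell. Npas2, a partner of BMAL1 in the circadian clock, had -1.40, 1.09 and 2.71 log2 CPM under HFD, against 2.46, 2.89 and 3.77 under RC, with a difference of -1.87 ± 0.34 (adjusted p = 0.000231). The lowest HFD libraries lay below every RC library of C57BL/6J, and the highest overlapped them. Asb11, a substrate adaptor of ubiquitin ligases, had 2.03, 2.72 and 3.46 under HFD, against 3.51, 3.85 and 4.14 under RC, without overlap, and differed by -1.08 ± 0.17 (adjusted p = 3.56e-05).

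Among the other C57BL/6J calls, Jhy, a gene of ciliated ependyma, fell by 0.93, Matn2, a matrix adaptor protein, by 0.65, Zdhhc22, a palmitoyltransferase, by 1.25, and Ica1l, a paralog of an islet autoantigen, by 0.56 on the log2 scale. Hectd2os, Gm5860, Gabra4, Gm4419, Nupr1 and Gstm2 fell by 0.20 to 1.00. Ambp rose by +0.33 ± 0.09 and Cbln4, a secreted synaptic organizer, by +0.51. Without day 5, 4 genes were called, against 2.65% of all genes, and without day 13, 7, against 5.06%. At day 5 the title numbers of the C57BL/6J HFD libraries all lay below those of the RC libraries. With the title number as a covariate, 3 of the 16 genes were still called (Npas2, Jhy and Hectd2os) and 13 were not, among them Asb11 (-0.57, adjusted p = 0.253) and Zdhhc22 (-0.45, adjusted p = 0.636), and Nupr1 stood at 0.020. That fit called 2.31% of all genes. In DBA/2J none of the 104 genes and 0% of all genes were called by limma (4 and 599 at an unadjusted p under 0.05), and limma voom on recovered reads also called 0 of the 104.

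Phgdh, the first enzyme of serine synthesis, and Jhy responded to the diet differently in BALB/cJ and C57BL/6J, the only 2 of the set called for that difference, against 1.27% of all genes. That difference also uses the RC libraries that chose the set, so its direction is not independent of the choice. Phgdh had 2.05, 2.80 and 3.63 log2 CPM under HFD, against 2.12, 2.59 and 3.14 under RC in BALB/cJ, and 2.68, 3.62 and 4.22 under HFD, against 3.58, 4.29 and 4.59 under RC in C57BL/6J. The HFD effect was +0.26 ± 0.12 in BALB/cJ and -0.64 ± 0.12 in C57BL/6J, a difference of +0.90 ± 0.17 (adjusted p = 0.00735). It was +0.67 (adjusted p = 0.0464) without the 7 BALB/cJ libraries of highest title number, and was no longer called without day 5 (adjusted p = 0.167), without day 13 (adjusted p = 0.108) or with the title number as a covariate (adjusted p = 0.537). Phgdh has a near-identical copy, Gm7901, so its reads could be shared. For Jhy the effects were 0.00 ± 0.17 in BALB/cJ and -0.93 ± 0.17 in C57BL/6J, a difference of +0.93 ± 0.24 (adjusted p = 0.0366), lost without day 5 (adjusted p = 0.424), under 6 other settings and in 17 of 69 fits that left out 1 library each. Against DBA/2J, the difference in diet effect was called for 0 of the 104 genes and 0% of all genes by limma (5 and 472 at an unadjusted p under 0.05).

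**Figure D5:**
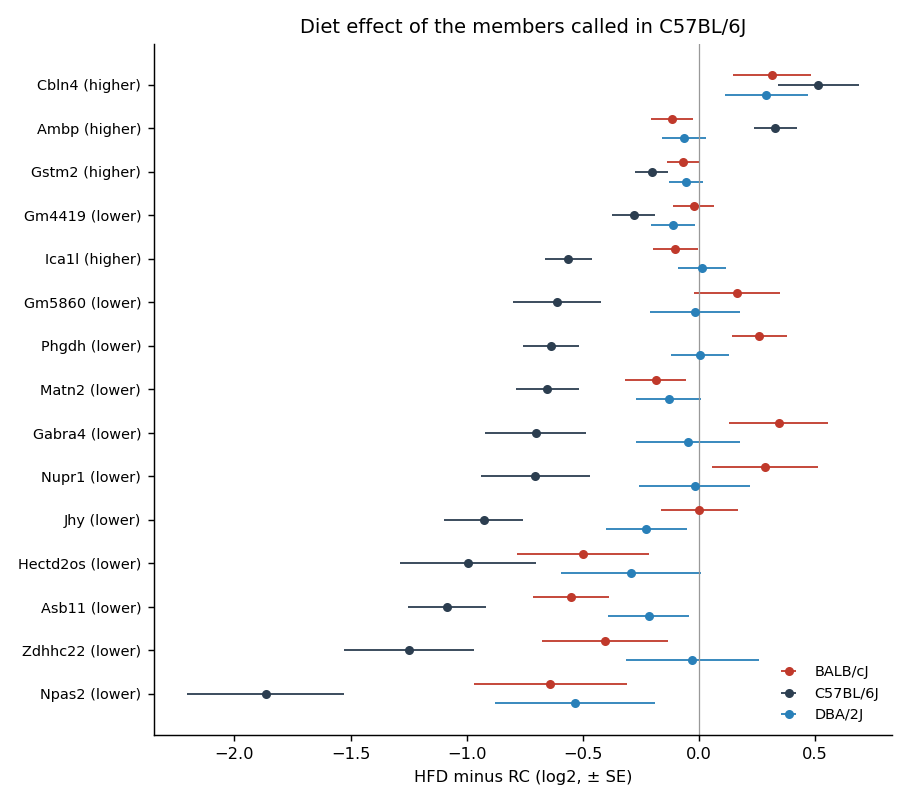
HFD minus RC (log2 CPM, points with bars of 1 SE) in each strain for 15 of the 16 genes called in C57BL/6J, with the direction of the strain difference in brackets. In C57BL/6J the effects run from -1.87 for Npas2 to 0.51 for Cbln4, and Phgdh stands at -0.64 in C57BL/6J and at 0.26 in BALB/cJ.

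In BALB/cJ, 3 of the lower genes were lower at day 33 than at day 5 of HFD (adjusted p = 0.0343 each), and 0.110% of all genes were called in this contrast. Nupr1 encodes a small stress-induced chromatin protein. It had 3.24, 3.80, 5.45 and 6.35 log2 CPM in the 4 libraries of day 5, 3.32, 3.61, 4.11 and 4.49 at day 13, and 1.67, 1.85, 2.26 and 3.89 at day 33. The day 33 and day 5 ranges overlapped through 1 library, and the difference was -2.29 ± 0.45. At day 5 of HFD the Nupr1 mean was 4.71 in BALB/cJ, above 4.26 in C57BL/6J and below 5.66 in DBA/2J. Dcdc2a had 2.94, 3.81, 4.47 and 4.69 at day 5, 2.35, 2.93, 4.29 and 4.39 at day 13, and 1.78, 2.32, 2.53 and 2.62 at day 33, without overlap of days 33 and 5, a difference of -1.67 ± 0.32. Tc2n, a protein with tandem C2 domains, had -0.36, 0.48, 1.74 and 2.15 at day 5, -0.94, -0.60, -0.35 and 0.65 at day 13, and -1.05, -0.81, -0.74 and -0.53 at day 33, a difference of -1.78 ± 0.35.

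The RC libraries of BALB/cJ were also lower at day 33 than at day 5 on average. Nupr1 averaged 3.43 ± 0.34 log2 CPM at day 5 of RC, 4.12 ± 0.82 at day 13 and 2.61 ± 0.53 at day 33 (SD, n = 4 each). Dcdc2a averaged 3.79 ± 0.49, 3.24 ± 0.77 and 1.90 ± 0.29 at these days of RC, and Tc2n -0.46 ± 0.22, 0.21 ± 0.53 and -1.06 ± 0.33. With all libraries in 1 fit, the day 33 minus day 5 difference under RC was -1.89 ± 0.30 for Dcdc2a (adjusted p = 0.000573), the only gene of all called, -0.82 ± 0.39 for Nupr1 (adjusted p = 0.776) and -0.61 ± 0.30 for Tc2n (adjusted p = 0.786). The HFD difference minus the RC difference was +0.23 ± 0.42 for Dcdc2a (adjusted p = 1), -1.47 ± 0.56 for Nupr1 (adjusted p = 0.997) and -1.18 ± 0.42 for Tc2n (adjusted p = 0.971), so the fall was not shown to differ between the diets.

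The highest 2 values of each of these genes at day 5 came from replicates 3 and 4, the libraries with the highest acinar levels and also among the 7 of highest title number. Without the libraries over 3 times the median acinar level, the differences were -1.10 for Nupr1 (adjusted p = 0.227), -1.06 for Dcdc2a (adjusted p = 0.165) and -0.84 for Tc2n (adjusted p = 0.254), and none was called. Without those 7 BALB/cJ libraries, Dcdc2a alone stayed called (-1.06, adjusted p = 0.0253). Leaving out day 5 replicate 3 or 4, or day 33 replicate 1, 2 or 4, singly also left none of the 3 called. Acinar level, title number and the 2 libraries cannot be told apart at day 5. The RefSeq promoter of Nupr1 on GRCm38.p6, at chr7:126625421-126625720 on the minus strand, is shown as it holds both a CACGTG E-box and TGATGNAA, the core of the element that ATF4 and CHOP bind, which reads on the opposite strand, both in capitals.
Nupr1 promoter: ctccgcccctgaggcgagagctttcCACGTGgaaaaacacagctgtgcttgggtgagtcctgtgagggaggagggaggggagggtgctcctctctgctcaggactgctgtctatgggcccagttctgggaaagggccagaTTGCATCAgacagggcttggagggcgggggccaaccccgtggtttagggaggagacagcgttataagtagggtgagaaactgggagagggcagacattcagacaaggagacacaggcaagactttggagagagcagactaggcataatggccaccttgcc

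RefSeq promoters (250 bases before to 50 after the start) matched 64 of the 104 genes, in 86 windows, and a gene can have several overlapping windows. They were searched on both strands for TATAAA (the TATA box), CCAAT (the CCAAT box), CACGTG (the E-box), TGACGTCA (the cAMP response element), TGATGNAA (the ATF4 and CHOP core) and the paired GAAA, none of which contains another. CCAAT was in 58.1% of the 31 windows of higher genes and 32.7% of the 55 windows of lower genes, against 37.4% of all 32851 windows. TGATGNAA was in 14.5% of the windows of lower genes and 3.23% of those of higher genes, against 3.97% of all. The paired GAAA was in 6.45% of the windows of higher genes and 3.64% of those of lower genes, against 3.44% of all. CACGTG was in 3.23% of the windows of higher genes and 5.45% of those of lower genes, against 7.15% of all. TATAAA was in 12.9% of the windows of higher genes and 10.9% of those of lower genes, against 13.6% of all, and TGACGTCA in none of either, against 1.79% of all. A match describes letters only and no factor was measured here. The Otud3 window, at chr4:138913919-138914218 on the minus strand, is shown with its CACGTG match in capitals because the gene split the BALB/cJ libraries.
Otud3 promoter: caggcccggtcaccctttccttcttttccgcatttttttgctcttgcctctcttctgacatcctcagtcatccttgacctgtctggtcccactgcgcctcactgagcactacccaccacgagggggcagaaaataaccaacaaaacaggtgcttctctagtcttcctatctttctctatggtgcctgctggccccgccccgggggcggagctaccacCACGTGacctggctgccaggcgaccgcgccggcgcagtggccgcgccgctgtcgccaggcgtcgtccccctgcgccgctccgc

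Few of the 104 genes belong to the pathway lists examined. Of 38 complement and coagulation genes measured, 10 were called higher in BALB/cJ under HFD and 1 lower, with median differences of +0.48 to C57BL/6J and +0.31 to DBA/2J, against medians of 0.00 and -0.01 over all genes. The higher genes included C3, C4b, Cfi, F3, Plat, Plau, Proc, Procr and Thbd, of which Procr is in the set. The lower gene was C8b, at -2.08 ± 0.07 to C57BL/6J and -0.37 ± 0.07 to DBA/2J. Masp2 is in the set but not on this list. These shares are read against 7.29% of all genes called higher and 7.23% called lower. Of 69 interferon-induced genes, 7 were higher and 4 lower, and Gbp4 is in the set, while Gbp2b is not on that list. Of 63 lipid metabolism genes, 17 were higher and 9 lower, with none in the set, but this list does not hold Acsf2, Agmo and Pla2g5, enzymes of lipids that are in the set. Of 22 neuropeptides and hormones, 8 were higher and 2 lower, with Tac1 in the set, and of 51 xenobiotic and glutathione enzymes 7 were higher and 6 lower, with Gstm2 in the set. Lists of other islet cell types held none of the set apart from the 2 ductal markers. Called higher, with 0 lower, were 7 of 17 stellate cell and fibroblast, 6 of 9 delta cell, 5 of 7 Schwann cell and 4 of 13 endothelial markers. The same held for 2 of 2 adipocyte and 1 of 6 PP and epsilon cell markers. Of 11 alpha cell markers 2 were higher and 2 lower, and of 29 beta-cell genes 5 and 6. Of 14 macrophage markers 0 were higher and 2 lower. Of 24 acinar and 5 lymphocyte markers 0 were called either way. Summed stellate markers had a median of 515 CPM in BALB/cJ, against 312 CPM in C57BL/6J and 492 CPM in DBA/2J. Their part in the results on the set was not tested.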

How the data were processed

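Islet RNA was prepared with a stranded poly(A) kit and sequenced as single-end reads of 125 bases, per the labels' protocols. Alignment tool STAR 2.5.3a, counter HTSeq 0.9.1, edgeR and build GRCm38 (C57BL/6J sequence) are listed in the submitters' processing notes. The effect of that reference on reads of the other strains was not tested, and the strand setting of the counting is not given in the sources used here. The deposited values are log2 CPM that the authors normalized, for 14604 genes in 69 of 72 samples, and the 3 samples without a column (1 of DBA/2J HFD day 13 and 1 each of DBA/2J and C57BL/6J RC day 33) were not analysed here. The labels give days 5, 13 and 33 where the series text repeats day 13, and the C56BL/6J label was taken to mean C57BL/6J.

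The floor of each library let every value be turned back into whole reads (100% within 0.05 reads), 12292621 to 34591079 per library, and the floor of 3 reads covers counting error only. Replicates differed beyond counting error (chi-square per degree of freedom 4.83 to 131). As nothing but the label marks them as separate animals, p-values measure the spread between these libraries. Identifiers matched GENCODE M21 for 14589 genes.

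Contrasts averaged the days and were fitted to log2 CPM over all genes with limma 3.58.1 in R 4.3.3 (1 mean per group, eBayes with trend, two-sided, Benjamini-Hochberg over all genes within a contrast, threshold 0.05). Strain and day contrasts used the HFD libraries, and diet contrasts all libraries. Values after ± are SE for log2 differences and SD for means. Fold changes of genes near the floor are understated on this scale. Near-identical transcripts were found with blastn 2.17.0. The 104 genes, the gene lists and the tests were chosen with earlier results of these data known. Named genes are the 12 highest and 12 lowest protein-coding genes by the smaller RC gap, those on a list, up to 6 per diet or day contrast, those nearest the limit, those with a neighbour of the set that differs the same way, and leading non-coding genes, and some genes are not reported here. Alternatives changed the normalization, centring, pseudocount, filter, variance trend, title number, days, samples and cell-type covariates, and left out each library in turn.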

Additional observations from a re-analysis of the deposited data

Results flagged for a closer look

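Within 1 strain, diet and day, single libraries stood far from the rest of their group, by a gap that chance gives in about 1 of 20 groups. Dcdc2a had 1 BALB/cJ library at RC day 13 at 4.395 log2 CPM, against 2.79 to 2.95 in the other 3. That library is one of the 7 of highest title number. Tc2n had 1 BALB/cJ library at RC day 33 at -0.58 log2 CPM, against -1.27 to -1.17 in the other 3. Many genes and groups were looked at, so such gaps are expected among them. Asb11 at HFD day 33 in BALB/cJ had 1 library at 1.88, against 0.73 to 0.81. Tc2n at HFD day 33 in C57BL/6J had 1 at 2.14, against 1.09 to 1.22.

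The HFD effect differed between strains for 2 genes by the test of the difference itself. It was 0.90 log2 units higher in BALB/cJ than in C57BL/6J for Phgdh and 0.93 for Jhy. Both genes were chosen as lower in BALB/cJ under RC, and the test uses those RC libraries, so the direction is not independent of the choice. Both calls were lost without day 5, where 0% of all genes were called for this difference.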

How the results depend on the processing

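Called higher and lower genes under HFD numbered 53 and 49 (7.29% and 7.23% of all genes tested), and 38 and 54 with copies summed (7.18% and 7.27%). They numbered 51 and 40 with BALB/cJ from the 7 libraries of highest title number alone (6.24% and 6.11%). Brackets below give the same share. With genes of mean log2 CPM 1 or more only, 22 genes were called higher (6.37%), 49 passed 1.5 and 35 differed between DBA/2J and C57BL/6J, as fewer genes were tested, and log2(CPM + 1) left 46 past 1.5. Genes called for diet in BALB/cJ numbered 0 with that filter (0.177%), 2 without day 5 (0.0479%), 0 without day 13 (0.0342%) and 0 without day 33 (0.0411%). They numbered 0 with the strain alone (0.0205%) and 0 without high-acinar libraries (0.904%). Without the 7 BALB/cJ libraries of highest title number there were 5 (3.77%), and 2 with BALB/cJ from these alone (0.0205%). In C57BL/6J the genes called for diet numbered 9 with the title number as a covariate (2.31%), 4 without day 5 (2.65%) and 7 without day 13 (5.06%). The diet effect in BALB/cJ minus C57BL/6J gave 4 with log2(CPM + 1) (1.92%), 1 with the filter (2.07%) and 0 with the title number (0.171%). It gave 0 without day 5 (0%), 0 without day 13 (0%), and 4 with acinar (1.95%) and 5 with ductal markers (3.79%) as covariates. It gave 1 without high-acinar libraries (0.274%) and 8 from those 7 alone (3.07%), where that against DBA/2J gave 1. Day 33 minus day 5 gave 1 with voom (0.0616%), 0 without trend (0.0274%), 0 with the title number (1.73%) and 5 over both diets (0.555%). It gave 0 with the acinar covariate (0.144%), 0 without high-acinar libraries (0.644%) and 1 without those 7 (1.49%). The selection found 224 genes at a gap of 1.0, 50 at 2.0, 68 when met at each day and 52 at a level of 3 or more. The cause of the other changes was not tested.

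Among the named genes, directions reversed with copies summed for AK157302 (-0.10), Gm10039 (-0.35), Gm4875 (-0.026) and Gm7292 (-0.33), with BALB/cJ from those 7 alone for Gm3055 (0.48), Otud3 (0.036) and Zdhhc22 (0.16), and, in the fit with title number as covariate, for the HFD effect of Nupr1 in C57BL/6J (0.020). Of 1215 values of named genes, 1109 kept direction and call, 93 lost the call, 5 gained it and 8 reversed.

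Leaving out 1 library at a time gave 53 higher genes, 48 to 50 lower, 84 to 88 past 1.5, 50 to 56 for DBA/2J minus C57BL/6J, 0 to 2 for diet in BALB/cJ, 11 to 16 in C57BL/6J and 0 in DBA/2J, 1 to 6 and 0 for the differences in diet effect, and 0 to 4 for day. The replicate numbers pair no libraries, but 21 pairs of HFD and RC libraries of 1 strain and day share a title number. Their deviations from the group means correlated at -0.29 to 0.35, over 0.1 in 9 pairs. The median was 0.17 in the 7 BALB/cJ pairs, 5 of them over 0.1, against 0.017 in C57BL/6J and 0.0083 in DBA/2J. Whether such libraries share more than a number was not tested. With the title number as a replicate block through correlated errors, across strains and days, every count was as given. The estimated correlation was -0.032 for HFD libraries and -0.014 for all libraries, so this setting could change little. With the block in a fit of these pairs alone, without day 5 for C57BL/6J, the counts for diet were 0 in BALB/cJ, 5 in C57BL/6J and 0 in DBA/2J, and 0 for the difference between BALB/cJ and C57BL/6J. Of all genes, that fit called 0.00685% for diet in BALB/cJ, 3.38% in C57BL/6J and 0.0342% for the difference. The summed-copy, marker, title-number and block settings were chosen after seeing the data.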

Other observations

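Relatives of the genes of the set, chosen after their values were seen, did not all share their strain difference. Among the other inter-alpha-trypsin inhibitor chains measured under HFD, Itih5 was higher in BALB/cJ by +0.91 ± 0.19 from C57BL/6J and +0.89 ± 0.19 from DBA/2J (adjusted p = 0.00014 and 0.000379), while Itih2 differed by +0.32 ± 0.14 and -0.49 ± 0.14. Masp1, which acts beside Masp2 in the lectin pathway, differed by +0.36 ± 0.18 and +0.50 ± 0.19 (adjusted p = 0.103 and 0.0403). Among the guanylate-binding proteins, Gbp9 was called higher in BALB/cJ, by +0.65 ± 0.15 and +2.68 ± 0.15, while Gbp2 differed by +0.30 ± 0.15 and -0.34 ± 0.15 and was called in neither contrast. Beside Pla2g5 on chromosome 4, Pla2g2f differed by +0.30 ± 0.07 and -0.44 ± 0.07, and Pla2g2c by -1.65 ± 0.15 and -0.22 ± 0.15.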
